A study of Mus musculus with 23 samples.

Results

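A stretch of mouse chromosome 2 that holds Dbh, Sardh, Adamtsl2 and Fam163b was examined in CD4 naive T cells. Its members were the peaks of 4 merged peak lists that lay over these 4 genes or within 500 kb of their outer ends, from 26579336 to 27748332 (mm10). This gave 39 peaks of 29404 in the lists: 27 R-loop, 10 RNA polymerase II, 2 H3K9me3 and 0 DDX55 peaks. The stretch was chosen because the R-loop list is crowded there, so the R-loop counts and widths are given as a description, with no test.

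The CD4+ naive T cells came from spleen and pLN. Donor mice were either wild type (WT) or carried a knockout (KO) of DDX55, a DEAD-box RNA helicase. They were profiled by CUT&Tag, in which a transposase tethered to an antibody cuts and tags the DNA close to the bound target. The RNA polymerase II, H3K9me3 and DDX55 lists were each named by 2 WT and 2 KO samples. The R-loop list was named by 8 samples stained with S9.6, an antibody against DNA-RNA hybrids: 2 WT and 2 KO untreated, and 2 WT and 2 KO treated with 20 U of RNase H, which degrades the RNA of such hybrids. The labels gave no strain, age or knockout allele. The lists held positions and no value per sample, so depth, replicate spread, the WT against KO difference and the RNase H effect were not measured here. The 2 HA samples and the IgG sample named no list and were not analysed here.

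An R-loop is a DNA-RNA hybrid with the unpaired DNA strand looped out, and it forms most often where a gene is being transcribed. RNA polymerase II peaks mark places engaged by the transcribing enzyme, and H3K9me3 marks heterochromatin. Dbh encodes dopamine beta-hydroxylase, which turns dopamine into noradrenaline in sympathetic neurons and adrenal chromaffin cells. Sardh encodes sarcosine dehydrogenase, a mitochondrial enzyme that converts sarcosine to glycine and feeds one-carbon metabolism, mainly in liver. Adamtsl2 encodes a secreted matrix glycoprotein that binds fibrillin and latent TGF-beta binding proteins, and Fam163b encodes a little-studied membrane protein.

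The 4 genes lay in the order Adamtsl2, Fam163b, Dbh, Sardh, with transcription of Adamtsl2 and Dbh on the plus strand and of the other two on the minus strand. The 250 bases before each start site are shown because no peak of any of the 4 lists touched the promoter window of a member gene, and Wdr5, a neighbour whose window met an RNA polymerase II peak, is shown beside them. Sequences are from RefSeq (GRCm38.p6, the coordinates of mm10), 5′ to 3′ along the gene, with CpG dinucleotides in capitals.
Adamtsl2, chr2:27079129-27079378, plus strand: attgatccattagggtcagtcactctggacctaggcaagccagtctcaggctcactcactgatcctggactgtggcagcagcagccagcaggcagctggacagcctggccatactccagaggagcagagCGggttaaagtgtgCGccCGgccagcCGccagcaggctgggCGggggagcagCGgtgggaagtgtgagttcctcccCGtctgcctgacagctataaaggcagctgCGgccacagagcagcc
Fam163b, chr2:27142478-27142727, minus strand: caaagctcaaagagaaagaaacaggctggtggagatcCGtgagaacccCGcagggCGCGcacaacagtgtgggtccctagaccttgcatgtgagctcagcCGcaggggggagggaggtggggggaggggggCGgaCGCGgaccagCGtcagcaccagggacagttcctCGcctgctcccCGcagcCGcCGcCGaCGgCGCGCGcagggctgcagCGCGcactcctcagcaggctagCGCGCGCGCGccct
Dbh, chr2:27165257-27165506, plus strand: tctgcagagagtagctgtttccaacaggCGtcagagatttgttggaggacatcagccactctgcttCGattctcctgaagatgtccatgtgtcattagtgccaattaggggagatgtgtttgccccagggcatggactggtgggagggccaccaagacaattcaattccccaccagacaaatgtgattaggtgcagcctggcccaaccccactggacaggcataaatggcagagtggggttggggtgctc
Sardh, chr2:27247304-27247553, minus strand: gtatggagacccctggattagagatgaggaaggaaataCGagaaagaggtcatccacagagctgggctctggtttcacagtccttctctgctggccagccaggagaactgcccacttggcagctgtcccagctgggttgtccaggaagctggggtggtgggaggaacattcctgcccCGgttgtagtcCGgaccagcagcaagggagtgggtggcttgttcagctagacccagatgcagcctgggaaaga
Wdr5, chr2:27514897-27515146, plus strand: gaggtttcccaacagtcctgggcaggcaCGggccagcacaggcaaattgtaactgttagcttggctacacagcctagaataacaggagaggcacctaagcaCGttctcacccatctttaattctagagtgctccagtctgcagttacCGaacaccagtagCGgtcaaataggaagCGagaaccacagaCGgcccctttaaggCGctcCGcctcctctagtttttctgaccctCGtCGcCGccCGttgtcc

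The start of Fam163b was CpG-rich and those of Dbh and Sardh were CpG-poor. For Sardh this is the start site at 27247303, which lies inside the gene's span. The sequence before the outer end of that span, 27248332, is not shown and was not examined. The Fam163b sequence held 25 CpG, 0.82 times the number its C and G content would give, and lay at percentile 82.7 of 32851 RefSeq promoter windows for that ratio. Dbh held 2 CpG (ratio 0.11, percentile 17.0), Sardh 3 (ratio 0.15, percentile 22.5) and Adamtsl2 8 (ratio 0.33, percentile 45.4). Wdr5 held 12 (ratio 0.66, percentile 70.3). The letters TATAAA, searched on both strands, were present in the Adamtsl2 sequence and in 12.4% of all windows, and were not found in the other sequences shown.

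Dbh was the member gene with the largest share of its span under R-loop peaks. The gene (gene 13166, 27165507 to 27183204) carried 3 peaks of 1170, 503 and 8007 bp, which covered 54.7% of its 17.7 kb. The first began 247 bp after the start site. The widest, at 27174808 to 27182814, began 9.30 kb after it and stopped 390 bp before the far end of the gene. It ranked 8 by width among 1473 R-loop peaks on chromosomes 1 to 19, X and Y. Thus both ends of the transcribed span had a peak close by, and the promoter window itself had none.

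Sardh had its R-loop peaks in the part far from its start. The gene (gene 192166, 27188393 to 27248332, 59.9 kb) held 3 peaks, of 857, 3694 and 2866 bp in the direction of transcription. The one nearest to the start site used here, 27247303, began 36.8 kb after it. The last, at 27187682 to 27190547, ran 711 bp past the far end of the gene. R-loop peaks covered 11.2% of the gene, and a further peak of 933 bp lay between Dbh and Sardh, where their far ends face each other.

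Adamtsl2 showed a similar placement with less cover. The gene (gene 77794, 27079336 to 27108981, 29.6 kb) held 2 peaks of 1140 and 783 bp, which began 21.7 and 26.2 kb after the start site and covered 6.49% of it. The 1140 bp peak also overlapped Gm36882, a long noncoding RNA gene, so its source gene cannot be told from position. The table of genes used here gives no exons, and no peak was assigned to an exon or intron.

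Fam163b held the most R-loop peaks of the 4 genes, spread along its length. The gene (gene 109349, 27110379 to 27142477, 32.1 kb) carried 4 peaks, of 1511, 2216, 1050 and 2664 bp in the direction of transcription, covering 23.2% of it. The first began 916 bp after the start site and the last stopped 902 bp before the far end. A peak of 1714 bp lay upstream, 1040 bp from the start site, so the CpG-rich start shown above was flanked by a peak on each side. That upstream peak and those of 2016 and 781 bp overlapped Dbhos, a long noncoding RNA gene annotated opposite to Dbh.

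**Figure D1:**
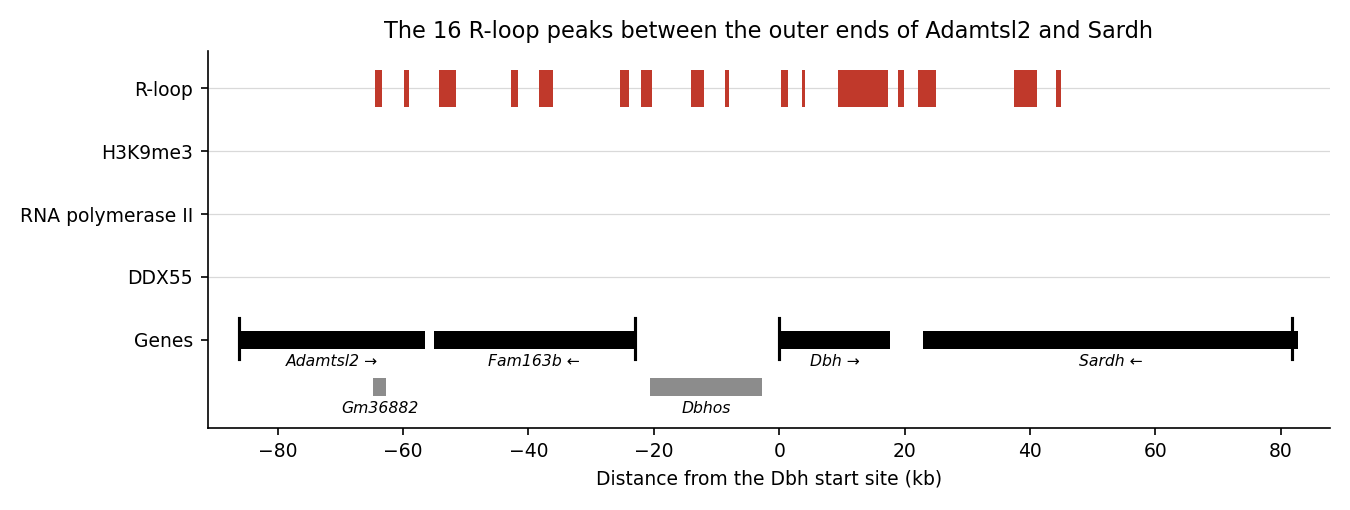
Peaks of the 4 lists (coloured boxes, drawn to scale) between the outer ends of Adamtsl2 and Sardh, by distance in kb from the Dbh start site; black boxes are the member genes with a tick at the start site and an arrow for direction, and grey boxes are noncoding genes. The R-loop row holds 16 peaks, and the H3K9me3, RNA polymerase II and DDX55 rows are empty.

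In all, 16 R-loop peaks lay between the outer ends of the 4 genes, from 27101065 to 27210482, and covered 31905 bp, or 29.2%, of that 109418 bp. Of these, 12 overlapped a member gene, 3 overlapped Dbhos alone and 1 lay in no annotated gene. Gaps between neighbours ran from 1720 to 12349 bp with a median of 3421 bp. The nearest R-loop peaks on either side were much farther away, at 274923 bp below and 137654 bp above. Chromosome 2 held 107 R-loop peaks in all.

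The R-loop peaks here were also wide. The 16 had a median width of 1340.5 bp (503 to 8007 bp), and the 27 of the whole stretch a median of 1261 bp, where the R-loop list has 524 bp. Of the 27, 26 were at least as wide as the list's median. The exception was the 503 bp peak in Dbh. Widths of 2000 bp or more were found in 7 of the 27, against 6.99% of the list. Because the stretch was picked from this list, nothing is read from these shares.

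**Figure D2:**
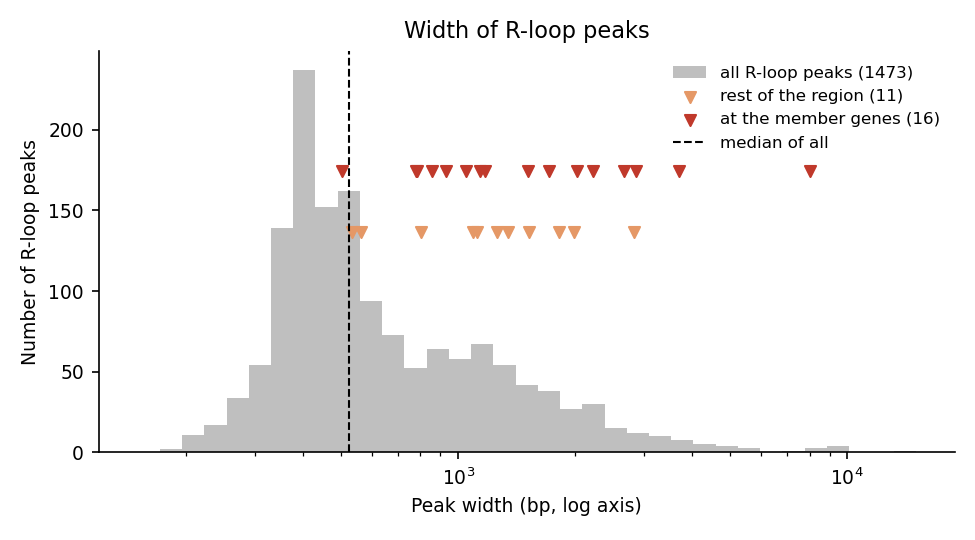
Widths in bp (log axis) of the 1473 R-loop peaks (grey histogram, number of peaks on the vertical axis), with the 16 peaks at the member genes (red) and the 11 others of the stretch (orange) as triangles whose height has no meaning. Of the triangles, 26 lie at or to the right of the dashed median of 524 bp, and the one farthest right is the 8007 bp peak in Dbh.

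None of the 4 genes had a peak of another list. Counting peaks within 3000 bp of a gene's span, 4 of 4 had R-loop peaks, where 1.8% of 21887 protein-coding genes do. For RNA polymerase II the count was 0 of 4 against 36.5% of genes, for H3K9me3 0 of 4 against 6.41%, and for DDX55 0 of 4 against 0.42%. With 4 genes, a count of 0 is too little to set against any of these background shares. From the 16 R-loop peaks, the nearest RNA polymerase II peak was 136 to 238 kb away (median 189 kb), close to the median of 184 kb over all R-loop peaks. H3K9me3 was 263 to 371 kb away (median 316 kb, against 259 kb over all R-loop peaks). The nearest DDX55 peak was 770 to 878 kb away (median 823 kb), closer than the 7686 kb over all R-loop peaks. The 16 peaks are neighbours and share these nearest peaks, so they count as a single place.

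Across the stretch no R-loop peak shared a base with another list. That was 0 of 27, where 20.6% of all R-loop peaks met an H3K9me3, RNA polymerase II or DDX55 peak. If the peaks were independent, 0 of 27 would allow a share of up to 11.1% (3 counts of 27). For all R-loop peaks the shares were 18.4% for H3K9me3, 3.46% for RNA polymerase II and 1.56% for DDX55. The limit of 11.1% covers counting error alone. Neighbouring peaks are not independent, so it does not hold for this stretch, and nothing is read from the 0 against 20.6%. The block sat in a gap of 479 kb between RNA polymerase II peaks, with Rexo4 at the lower edge and Brd3os at the upper. Such gaps were not rare: 10.2% of 10877 gaps between neighbouring RNA polymerase II peaks were at least that long. This is a share by number, and long gaps hold a larger share of the sequence between peaks. The gap held 10 protein-coding genes, 19 R-loop peaks and 0 H3K9me3 and DDX55 peaks.

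**Figure D3:**
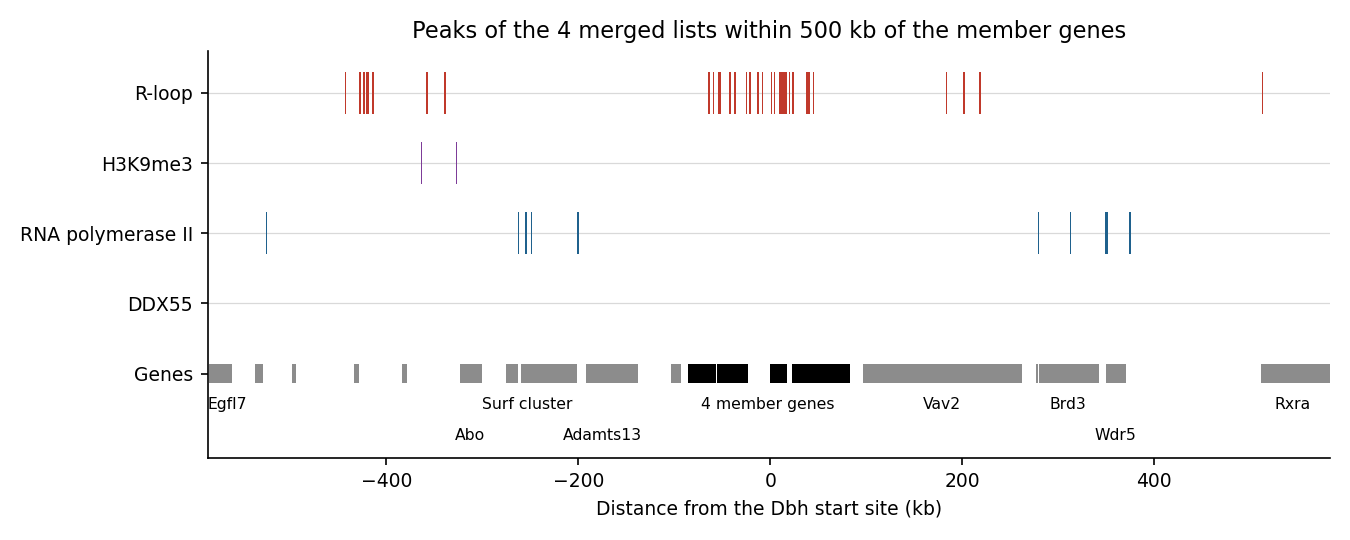
Peaks of the 4 lists across the whole stretch, by distance in kb from the Dbh start site, with protein-coding genes below (member genes in black); boxes narrower than 1.5 kb are drawn at 1.5 kb. The 16 R-loop peaks at the member genes stand in the gap of 479 kb without an RNA polymerase II peak, and 7 further R-loop peaks lie between Lcn4 and Abo, 3 in Vav2 and 1 in Rxra.

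R-loop and RNA polymerase II peaks lay at separate genes of this stretch. It held 28 protein-coding genes, of which 7 had an R-loop peak within 3000 bp, 9 an RNA polymerase II peak and 12 neither. No gene had both. Across the genome 143 of 393 genes with an R-loop peak (36.4%) also had an RNA polymerase II peak, close to the 36.5% of all protein-coding genes. With 7 genes, among them the 4 neighbouring members chosen for their R-loop peaks, the lack of a shared gene cannot be told from that share. The 7 were the 4 member genes, Gm39773, Vav2, which encodes an exchange factor for small GTPases, and Rxra, which encodes a retinoid X receptor. In Vav2 the peaks were 1092, 1817 and 802 bp wide and the nearest to the start site was 43802 bp from it. In Rxra a 1524 bp peak began 512 bp after a start site, a distance similar to that in Dbh and Fam163b.

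Genes with RNA polymerase II peaks lay on both sides of the gap. Below it, a 1403 bp peak at 26910224 to 26911626 covered the starts of Rpl7a, a ribosomal protein gene, and Med22, a Mediator subunit gene. Surf6 (367 bp), Surf1 and Surf2 (570 bp, shared) and Rexo4 (560 bp) had peaks in their promoter windows, and Snhg7, a snoRNA host gene, had a peak of 410 bp. Above it, Wdr5, a subunit gene of histone H3K4 methyltransferase complexes, had peaks of 573 and 701 bp, and Brd3, a bromodomain gene, had one of 646 bp and shared another, of 619 bp, with Brd3os. The widest, 1530 bp, covered the start of the noncoding gene Gm13421 and was within 3000 bp of Wdr5.

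Promoter windows with RNA polymerase II peaks held more CpG in the median than those without, and the ranges overlapped. Of the 39 RefSeq promoter windows of the stretch, 9 met an RNA polymerase II peak (18.4% of windows do across the genome) and 0 met an R-loop peak (0.161% do), an H3K9me3 peak (0.435%) or a DDX55 peak (0.0487%). The 9 held 12 to 30 CpG (median 16), and the CpG ratio ran from 0.54 to 1.13. The 30 windows without such a peak held 0 to 40 CpG (median 7.5), with ratios up to 1.12, and that of Brd3 and one of those of Rxra were the richest. Of the member genes, Fam163b lay within both ranges, at 25 CpG and 0.82, and its nearest RNA polymerase II peak was 177615 bp from its start. Dbh, Sardh and Adamtsl2 lay below the ranges of the 9 windows in both count and ratio, and within those of the 30. Over the genome the median was 19 CpG in windows with an RNA polymerase II peak and 4 in those without.

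Seen gene by gene, 348 protein-coding genes had an R-loop peak inside their span, with a median of 0.43% of the gene covered. Dbh ranked 3 by the share covered, Fam163b 9, Sardh 16 and Adamtsl2 25. The genes with at least as many R-loop peaks as Dbh and Sardh together, 6, were Dnm3 (32), Pard3 (13), Ttll5 (13), Sox5 (9), Rora (8) and Uaca (6). Of these Dnm3, Ttll5 and Uaca had 12.7, 9.80 and 9.36% of their length covered, and the long genes Pard3, Rora and Sox5 3.44, 1.09 and 0.86%. The member genes are short by comparison, and their peaks continue from gene to gene.

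**Figure D4:**
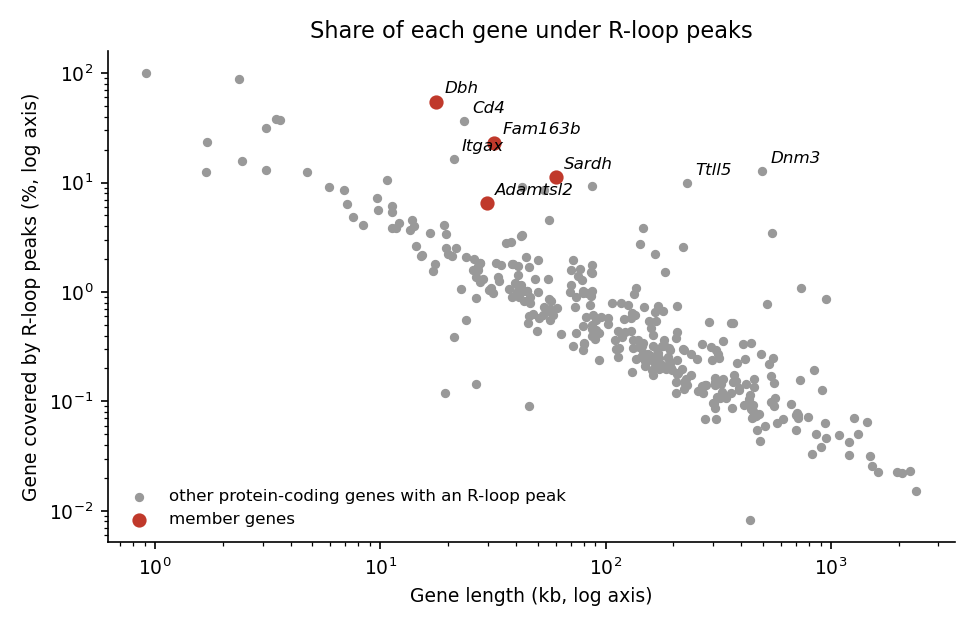
Share of the gene under R-loop peaks (percent, log axis) against gene length (kb, log axis) for the 348 protein-coding genes with such a peak; red points are the member genes and grey points the others. Dbh (54.7%), Fam163b (23.2%), Sardh (11.2%) and Adamtsl2 (6.49%) lie above most genes of similar length.

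The block was compared with other crowded or wide R-loop places by joining peaks whose gaps were at most 10 kb. Here this gave runs of 5, 9 and 2 peaks, broken by gaps of 10592 and 12349 bp. The longest, 9 peaks over 50.5 kb from Fam163b to Sardh, ranked 6 of 1227 runs, of which 91.4% were single peaks. With gaps of up to 20 kb the 16 peaks formed a single run that ranked 4 of 1127. Dnm3, a dynamin gene, held 32 R-loop peaks of median 1386.5 bp over 12.7% of its span, and Igh, the immunoglobulin heavy chain locus, 97 of median 1125 bp over 5.09%. The genes described here had 18.9% of their 169 kb covered. Cd4, the coreceptor gene, had a single peak of 8535 bp, with 4 RNA polymerase II, 1 H3K9me3 and 1 DDX55 peaks in the gene. Dnm3 had none of those 3 kinds in its span, as here, and Igh had 2, 5 and 3. Pard3, Sox5 and Uaca, named above, also had none, while Ttll5 had 1 RNA polymerase II peak and Rora 2, with 1 H3K9me3 peak.

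**Figure D5:**
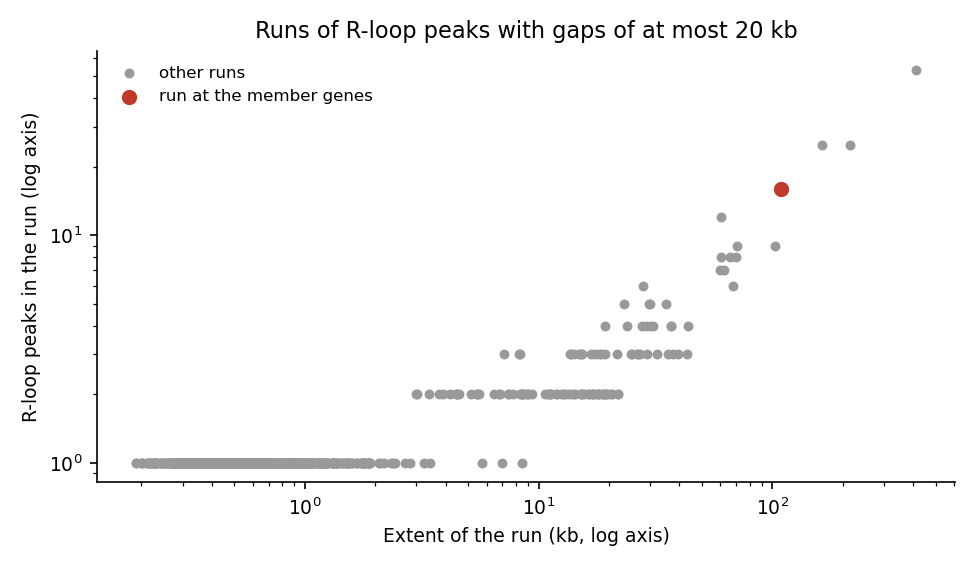
Number of R-loop peaks in a run (log axis) against the extent of the run in kb (log axis), for the 1127 runs with gaps of at most 20 kb; each point is a run and the red point is the run at the member genes. It holds 16 peaks over 109.418 kb, and 3 runs hold more.

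Genes that work with the members in other tissues were counted in the same way. Since 1.8% of protein-coding genes have an R-loop peak, lists of this size would hold few or none, and nothing is read from a count of 0. Of 14 genes of catecholamine synthesis, transport and breakdown, Dbh had the only R-loop peaks, and Gch1, Maoa, Qdpr and Slc18a1 had RNA polymerase II peaks. Maoa alone also had a DDX55 peak, where 0.42% of protein-coding genes do, and nothing is read from 1 gene. Th, Ddc and Pnmt, which act before and after Dbh in the pathway, had no peak of any list. Of 18 genes of sarcosine and one-carbon metabolism, Sardh had the only R-loop peaks and 9 had RNA polymerase II peaks, among them Ahcy, Aldh7a1, Etfa and Etfb. The electron transfer flavoprotein genes Etfa and Etfb serve sarcosine dehydrogenase. Against the background of 36.5%, the counts of 4 of 14 and 9 of 18 were on either side of it.

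Among 13 genes of the ADAMTS-like family and its fibrillin and TGF-beta binding partners, Adamtsl2 had the only R-loop peaks, Adamtsl4 an RNA polymerase II peak and Adamtsl1 H3K9me3 peaks. Fam163a, the relative of Fam163b, had no peak of any list. The 7 transcription factor genes of sympathetic neurons had no peak of any list, where 36.5% of genes have an RNA polymerase II peak, 6.41% H3K9me3, 1.8% R-loop and 0.42% DDX55 peaks. With 7 genes, the lack of a peak cannot be told from any of these shares. These lists include the members, which were chosen for their R-loop peaks.

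Marker genes were counted for RNA polymerase II in the same way, since the lists cannot show cell types directly. Among T cell genes 11 of 12 had a peak within 3000 bp. B cell genes had 1 of 6, erythroid genes 1 of 5, genes of CD8 T and NK cells 1 of 6 and myeloid genes 0 of 6. The share over protein-coding genes was 36.5%, from which counts of 0 or 1 in lists this short cannot be told apart. Of 6 sympathetic neuron and chromaffin genes 0 had one, among them Th and Chga. R-loop peaks lay at 2 of the 6 myeloid genes, Itgam and Itgax, and at Cd4 and Dbh, against 1.8% of genes. Itgam and Itgax are neighbours in a single run of 7 R-loop peaks with gaps of at most 20 kb, so they count as a single place. Dbh was chosen for its R-loop peaks, and nothing is read from these counts.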

How the data were processed

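CUT&Tag libraries of 200 to 1000 bp were sequenced as paired reads of 150 nt, per the labels' protocols. The authors deposited 4 merged peak lists, 1 per target, whose values are start and end positions in bp; they hold no count, score or signal, and the depth per sample is unknown. The submitters' processing notes name mm10 as the build, and, with no roles or settings, MACS3 (3.0.0b1), ChIPseeker (1.30.3), Bowtie2 (2.5.0), SAMtools (1.15.1) and fastp (0.12.4). Thresholds, the merging rule and any use of controls are not given in the sources used here.

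Positions were read as BED and are printed counting from 1. Peaks on chromosomes 1 to 19, X and Y were used, with genes and promoter windows (250 bp before to 50 bp after a start) from RefSeq GRCm38.p6. All 4 member genes and every gene of the lists matched by symbol. A shared base made an overlap; counts used pandas 2.3.3 with numpy 2.4.6, were tested on simulated data and were checked with bedtools 2.31.1. The members, lists and tests were chosen with earlier results of these data known. Named genes were the 4 members, genes of the stretch with a peak, genes with at least 6 R-loop peaks and up to 4 members per list in alphabetical order; Th, Ddc, Pnmt, Fam163a, Chga and the compared genes Cd4 and Igh were named besides. One further gene list is not reported here. No significance test was made, because a merged list has no replicates and the stretch was chosen from it. The limit given for a count of 0 is 3 counts of the total, covers counting error only and assumes independent peaks.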

Additional observations from a re-analysis of the deposited data

How the results depend on the processing

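The merged lists limit every count here: the samples behind a list include both genotypes and, for R-loops, RNase H treatment, and which of them gave a peak, and how high it was, is not known. No paired analysis was possible because the lists hold no value per sample, and for the same reason leaving out each replicate was not run. Of 41 alternatives over 12 counts and extents, 25 stayed within 1.5 times the reported value. At the 4 genes, windows of 0, 1000 and 10000 bp gave 12 to 16 R-loop peaks and 0 peaks of the other 3 lists.

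R-loop peaks were 42.7 times as dense in the stretch as over the genome, a value that the choice of the stretch sets; this became 23.9 with flanks of 1000 kb, 175 with no flank and 81.9 with the wider 50% of the list, which stood in for a stricter threshold. With no flank there were 16 R-loop, 0 H3K9me3 and 0 RNA polymerase II peaks, with 250 kb 1 H3K9me3 and 6 RNA polymerase II peaks, and with 1000 kb 1 DDX55 peak. Joining R-loop peaks over gaps of at most 5 kb gave a longest run of 4 peaks over 14.8 kb, which lay outside the member genes, and gaps of up to 20 or 50 kb gave 16 peaks over 109 kb. Within 5000 bp, a distance chosen after seeing the data, 1 R-loop peak had a neighbour of another list.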

Other observations

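A further group of 7 R-loop peaks lay 339 to 443 kb below the Dbh start site, between Lcn4 and Abo. It held a run of 4 peaks over 14.8 kb, at 26737029 to 26751854, of 1119, 1988, 2838 and 1261 bp. The first of them lay within 3000 bp of Gm39773, and a separate peak of 562 bp overlapped the pseudogene Gm13359. The other two, of 1341 and 533 bp, lay in no annotated gene. The 2 H3K9me3 peaks of the stretch were here, at 26801207 to 26802653 and 26837901 to 26838467, at 4445 and 11759 bp from the nearest R-loop peak. At the mean density over the genome the stretch would hold 7.07 H3K9me3 peaks, and 4.68 RNA polymerase II peaks where it had 10. Over the fixed windows described below, a little shorter than the stretch, the median was 2 peaks for H3K9me3 and 2 for RNA polymerase II. The H3K9me3 count was thus below the mean and no lower than the median.

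Near the edges of the stretch the next R-loop peak was 3834 kb beyond it below and 436 kb beyond it above, and the next RNA polymerase II peak was 17.9 kb beyond it below. Of fixed 1-Mb windows, the one with the 4 genes held 20 R-loop peaks, rank 7 of 2732, with 5 RNA polymerase II, 0 H3K9me3 and 0 DDX55 peaks. In the 6 windows with more R-loop peaks, RNA polymerase II peaks numbered from 1 to 10.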
